A study of Mus musculus with 2 samples.

Results

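The genes described here are 10 members of the semaphorin pathway, out of 28380 genes listed in the tables of the study. They were taken by name, with earlier results of these data known: the ligands Sema7a, Sema3a, Sema3c, Sema3f, Sema3g and Sema6a, the co-receptors Nrp1 and Nrp2, and the receptors Plxnd1 and Plxnc1. They were measured by single-cell RNA sequencing (scRNA-seq) on the BD Rhapsody system, in which every captured polyadenylated molecule carries a unique molecular identifier (UMI), in cells of mouse femur and tibia at postnatal day 30 after depletion of blood-lineage cells. There was 1 Control library, from C57BL/6 mice with the genotype Dach1OE +/f and no Cre, and 1 Dach1OE library, from C57BL/6 mice labelled Apj CreERT2 - Dach1OE +/f, in which tamoxifen-activated Cre under control of the apelin receptor gene (Apj or Aplnr, active in capillary endothelium) switches on a Dach1 transgene in Rosa26. Both groups received tamoxifen and both carried the transgene. Each library pooled a pair of mice, with both sexes in the pool per the labels, so that a comparison of the groups sets 1 library against 1 library and has no replicate and no p-value.

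Semaphorins are secreted or membrane-bound guidance proteins that steer growing axons, vessels and migrating cells, and they act through receptors of the plexin family, which switch off small GTPases and integrins at the cell surface. The secreted class 3 ligands mostly bind a neuropilin that pairs with a plexin, Sema6a spans the membrane and binds A-type plexins directly, and Sema7a is held by a lipid anchor and binds Plxnc1 and integrins. In bone, Sema3a restrains osteoclast formation and favours osteoblasts, and the neuropilins of the endothelium also serve as co-receptors of vascular endothelial growth factors.

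The promoters of the 3 members that differed most between the libraries in endothelial cells (ECs), Sema7a, Sema3g and Sema3a, are shown to give the sequence context of these genes. Each is the stretch of 250 bases before the annotated start (RefSeq, GRCm38.p6, plus strand in all 3), and capitals mark matches on either strand to GGGCGG (GC box), TATAA (TATA box) or CANNTG (E-box).

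Sema7a promoter, chr9:57939862-57940111: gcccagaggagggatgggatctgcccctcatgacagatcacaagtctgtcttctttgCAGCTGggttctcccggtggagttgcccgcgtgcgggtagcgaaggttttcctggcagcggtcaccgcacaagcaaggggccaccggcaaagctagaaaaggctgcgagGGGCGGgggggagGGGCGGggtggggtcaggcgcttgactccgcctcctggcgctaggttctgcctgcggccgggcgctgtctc
Sema3g promoter, chr14:31217623-31217872: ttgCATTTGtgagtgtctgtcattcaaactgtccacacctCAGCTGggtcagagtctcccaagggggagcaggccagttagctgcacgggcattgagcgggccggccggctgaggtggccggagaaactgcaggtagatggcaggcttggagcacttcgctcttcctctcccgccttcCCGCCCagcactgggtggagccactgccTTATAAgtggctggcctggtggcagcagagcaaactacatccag
Sema3a promoter, chr5:13396534-13396783: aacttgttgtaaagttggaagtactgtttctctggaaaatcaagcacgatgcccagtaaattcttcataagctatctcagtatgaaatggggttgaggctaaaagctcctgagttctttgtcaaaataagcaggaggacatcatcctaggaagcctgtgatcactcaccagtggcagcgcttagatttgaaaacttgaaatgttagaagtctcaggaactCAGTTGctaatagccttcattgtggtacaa

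The Sema7a stretch had 66.4% G and C and held 2 GC boxes, 84 and 71 bases before the start, and 1 E-box. The Sema3g stretch had 60.4% G and C, with a TATA box 44 bases before the start that reads on both strands with an overlap of 4 bases, 1 GC box and 2 E-boxes, whereas the Sema3a stretch had 40.8% and held 1 E-box. Among 32851 mouse promoter stretches of this length the median was 52.4% G and C, 32.7% held a GC box, 22.8% a TATA box and 66.2% an E-box. CCAAT (33.8% of stretches) and GTGGGAA, a motif of the Notch partner RBPJ (5.42%), were also searched and had no match in the 8 members with an entry, of which 7 held a GC box. In the GENCODE vM21 annotation of GRCm38 all members are protein-coding genes, with Sema7a at chr9:57940112-57962865, Sema3g at chr14:31217860-31230352 and Sema3a at chr5:13125414-13602565. The Sema3g stretch ends inside the first bases of the gene as GENCODE draws it, and the Sema3a stretch lies well inside that gene, so that another upstream start exists for this gene, and 4 small annotated genes, 1 of them on the opposite strand, overlap it. Nrp1 (chr8:128358604-128503363), Nrp2 (chr1:62703285-62818695) and Plxnc1 (chr10:94790866-94944835) also contain small overlapping genes, whose reads could have been counted with them.

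The tables held 28720 Control and 32028 Dach1OE cells with 143986818 and 166999989 UMIs, and 1049 cell barcodes occurred in both (3.65% and 3.28% of the cells). Filtering kept 26466 and 29317 cells, of which 84.9% and 83.1% could be assigned to a class by 8 marker genes each, none of them a member. ECs, gated by Cdh5, Pecam1, Kdr and 5 others, numbered 9481 and 9881 with a median of 2794 and 2788 UMIs. Dach1, the targeted gene, had a level of 5.10 in Control ECs and 194 in Dach1OE ECs, a log2 ratio of 5.25 (95% counting interval 5.03 to 5.48). Levels are UMIs per 1000000 UMIs of the class (CPM), ratios are Dach1OE over Control, and intervals cover counting error only, not the difference between mice. The mice of a library were set apart by sex, as cells with Xist and no Y-linked UMIs or cells with Y-linked UMIs and no Xist, on the reading that each pair was 1 female and 1 male. Cells of neither kind are left out of these values. Where groups are said not to overlap, a pair of values stands against a pair, and the share of all genes without overlap is not given. In ECs, Sema3f and Nrp2 had no overlap either, with log2 ratios of only 0.29 and -0.16. A lower level in a class can mean fewer expressing cells or less RNA per cell.

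In Control the ligands had different distributions over the classes. Sema3g, a secreted ligand made by arterial endothelium, was highest there, at 1094 in arterial ECs against 91.9 in ECs of no subtype, 61.5 in metaphyseal ECs and 5.46 in sinusoidal ECs. Sema3a was highest in sinusoidal ECs at 188, ahead of proliferating ECs (76.0), fibroblasts (73.8) and ECs of no subtype (71.7), which did not differ beyond their intervals. Sema7a was highest in arterial ECs at 626, followed by metaphyseal stromal cells at 292 and then by marrow stromal cells and metaphyseal ECs at 178 and 177, whose intervals overlapped. Sinusoidal and type R-like ECs, the latter gated by markers of the capillaries that follow arterioles, held little Sema7a, 15.7 and 10.7. The type R-like gate need not match the type R cluster of the authors. Its 5 markers summed to 3156 in type R-like and to 1608 in arterial ECs of Control.

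The other ligands were also tied to certain cells. Sema3f, a secreted ligand that repels through Nrp2, and the membrane-bound Sema6a were endothelial in all subtypes, with Sema3f between 88.6 and 182 and Sema6a between 134 and 272 in the 6 Control EC subsets and at most 24.0 and 31.4 in any other class. Sema3c, a secreted ligand known from the outflow tract of the heart, was highest in fibroblasts, at 341 in Control and 435 in Dach1OE fibroblasts, against 23.2 and 18.7 in chondrocytes. In ECs Sema3c stood at 4.24 (3.57 to 5.01) and 4.87 (4.15 to 5.68), against 3.07 (2.16 to 4.23) and 1.53 (0.97 to 2.30) in erythroid cells, so that the intervals of the cell types overlapped in Control and not in Dach1OE. At an equal depth of 1000 UMIs it was seen in 0.34% and 0.35% of ECs and in 0.20% and 0.46% of erythroid cells, the latter only 3 and 8 cells.

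The receptors were broader. Nrp1, the neuropilin of arteries, was at 602 in Control arterial ECs, 503 in marrow stromal cells and 477 in metaphyseal ECs, and was still at 221 in mural cells. Nrp2, the neuropilin of veins and lymphatics, had its highest level outside the endothelium, in osteoblasts, at 742 in Control and 712 in Dach1OE, followed in Control by metaphyseal ECs at 478 and sinusoidal ECs at 405. Arterial ECs were the EC subset lowest in Nrp2, at 99.6 and 83.4 in Control and Dach1OE. Plxnd1, an endothelial plexin, ranged from 244 in arterial to 479 in metaphyseal Control ECs, against 129 in marrow stromal cells and 6.74 in osteoblasts. Plxnc1, the Sema7a receptor, was sparse everywhere and highest in erythroid cells, at 23.9 and 24.4, ahead of sinusoidal ECs at 18.4 and 16.0 and leukocytes at 15.6 and 16.4. No Plxnc1 UMI was counted in type R-like ECs of either library, where the exact Poisson intervals reach up to 4.94 in Control and 6.35 in Dach1OE.

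**Figure D1:**
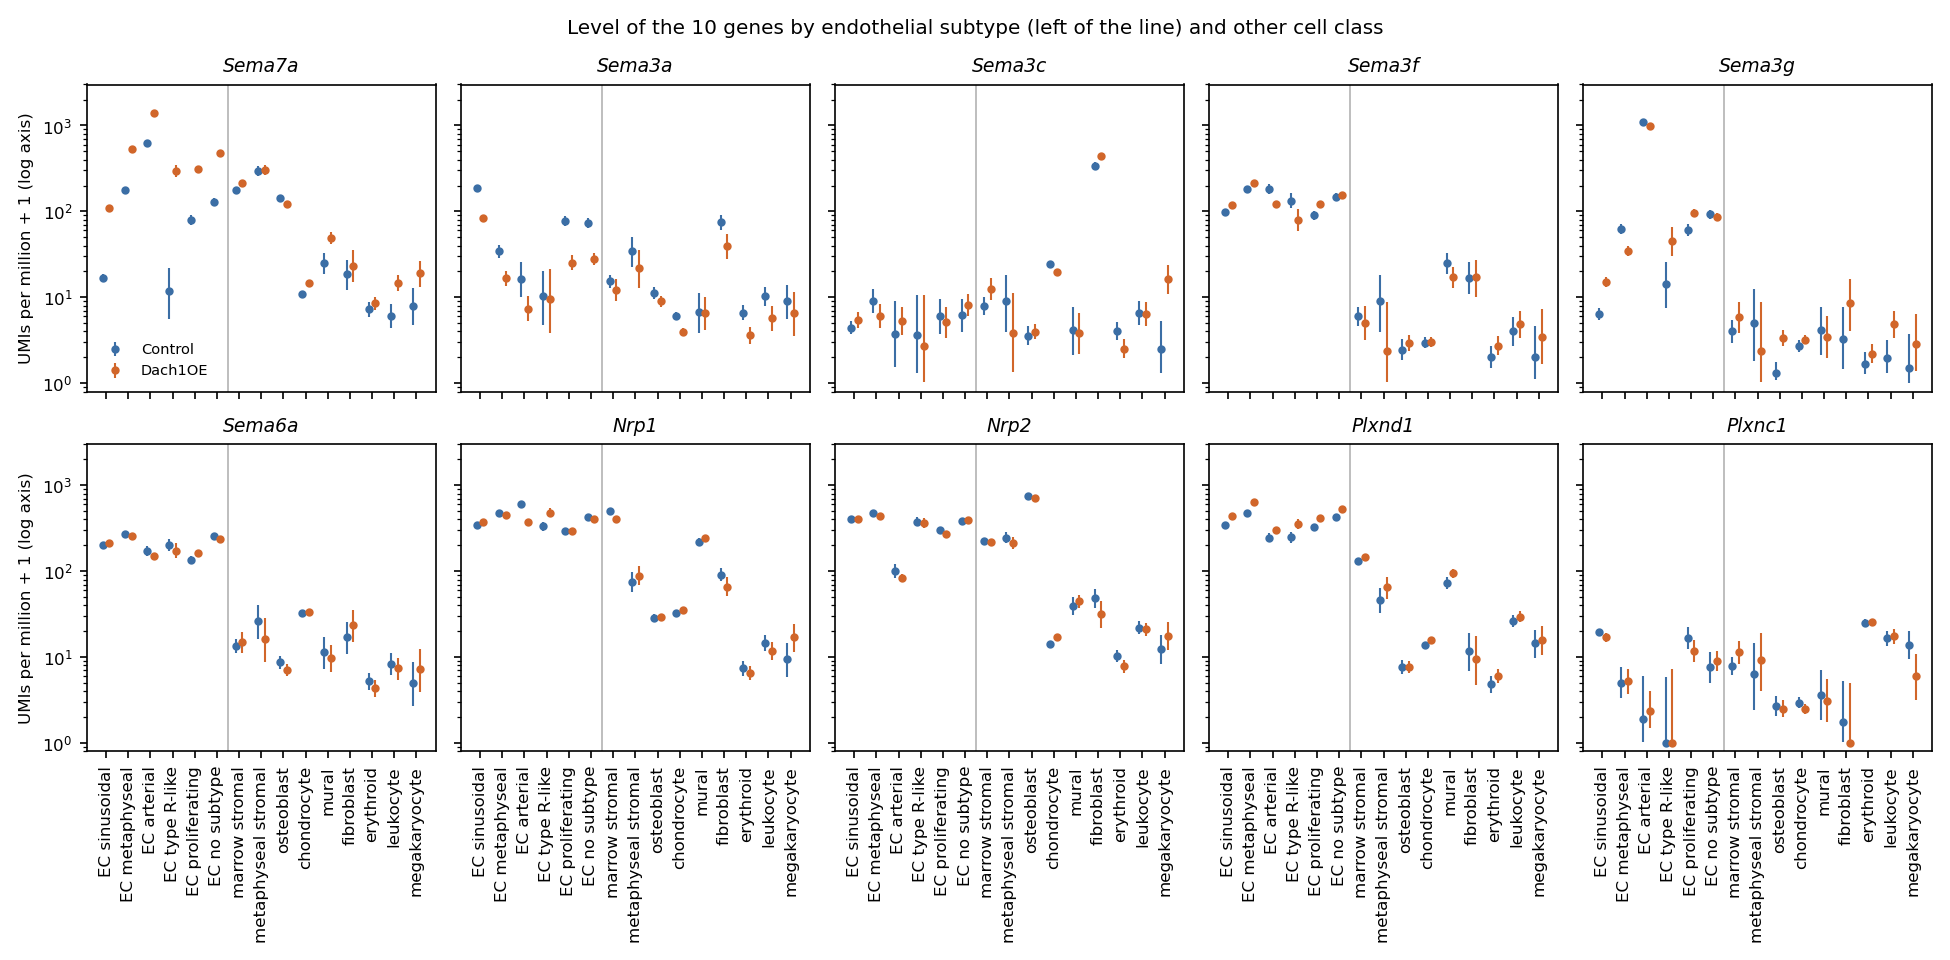
Level (CPM plus 1) on a log axis for the 10 genes in 6 EC subsets and 9 other classes of the Control and Dach1OE libraries, with exact Poisson intervals. Sema3g peaks in arterial ECs (1094 in Control), Sema3c in fibroblasts (341) and Nrp2 in osteoblasts (742), and Sema7a is higher in Dach1OE in every EC subset.

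In all ECs, Sema7a and Sema3g were higher and Sema3a was lower in Dach1OE by at least 1.5-fold, and the other 7 members were within 1.5-fold. All 10 members had the 50 UMIs over both libraries that a call needed. Among all 14035 genes with that many UMIs in ECs, 7.97% were higher and 6.42% lower by as much, beside 2 and 1 of the 10 members, and the median log2 ratio was 0.04 over all genes and 0.13 over the members. As the members were chosen with earlier results of these data known, these values are no test of the set.

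Sema7a stood at 71.2 in Control ECs and 435 in Dach1OE ECs, a log2 ratio of 2.61 (2.55 to 2.68) or 6.11-fold, and only 55 of the 14035 genes had a higher ratio. Within Control it was 75.5 in cells with Xist and 55.8 in cells with Y-linked UMIs, and within Dach1OE 388 and 483. The 4 values, 1 mouse each on the reading that a pair was 1 female and 1 male, did not overlap between the groups. At an equal depth of 1000 UMIs per cell, 5.87% of Control and 26.0% of Dach1OE ECs had a Sema7a UMI (11.8% and 42.6% without thinning), against 0.53% and 0.51% of erythroid cells, whose median depth was 7188 and 8108.5 UMIs.

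The increase of Sema7a was present in each EC subtype, and its ratio was larger in the subsets where Control, which also enters the ratio, held less. In sinusoidal ECs it was 15.7 in Control and 107 in Dach1OE, a log2 ratio of 2.77 (2.59 to 2.95). The sinusoidal markers of these cells summed to 4082 and 3179 and the type R-like markers to 47.3 and 92.8. The part of these shifts in the ratio was not tested. Metaphyseal ECs had Sema7a at 177 and 535, a ratio of 1.59 (1.47 to 1.71), and arterial ECs at 626 and 1388.5, a ratio of 1.15 (1.03 to 1.26). Within arterial ECs the arterial markers summed to 3086 and 4487, the osteoblast markers to 236 and 420 and the megakaryocyte markers to 74.2 and 179. The mural markers there summed to 291 and 502, while the fibroblast markers were lower, at 158 and 56.2. Their part in this ratio was not tested. Proliferating ECs had Sema7a at 78.9 and 312, a ratio of 1.98 (1.77 to 2.20). Type R-like ECs had the largest ratio of any subset, with 8 UMIs in 294 Control cells and 172 UMIs in 216 Dach1OE cells, levels of 10.7 and 296, a ratio of 4.79 (3.78 to 6.02) that 1 of the 4452 genes counted there exceeded. The summed metaphyseal markers of these type R-like ECs were at 416 and 761, with 4 of 5 higher in Dach1OE, and the osteoblast markers at 118 and 293, with 7 of 8 higher, and their part in the Sema7a ratio was not tested. In the cells of either sex the Control and Dach1OE values of Sema7a did not overlap in any of these subtypes, for example 17.7 and 15.7 against 96.9 and 109 in sinusoidal ECs. In type R-like ECs the Control values rest on 1 UMI in the cells of each sex.

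In the stromal classes and osteoblasts the Sema7a levels of the libraries were closer. Metaphyseal stromal cells had 292 and 300, marrow stromal cells 178 and 214, and osteoblasts 142 and 122 in Control and Dach1OE. The log2 ratios were 0.04 (-0.24 to 0.32), 0.27 (0.14 to 0.40) and -0.22 (-0.31 to -0.13), all within 1.5-fold. The marrow stromal value differed by sex, with 180 and 180 in cells with Xist and 157 and 276 in cells with Y-linked UMIs, a ratio of 0.81 (0.55 to 1.08) in the latter. Mural cells, at 24.0 and 48.3, and leukocytes, at 5.09 and 13.9, had higher values in Dach1OE, with ratios of 1.01 (0.52 to 1.53) and 1.45 (0.80 to 2.14), and both carry markers of ECs, whose 8-gene sum was 495 and 533 in mural cells and 415 and 419 in leukocytes. The part of EC RNA in these values was not tested. Megakaryocytes were at 6.96 and 18.0, a ratio of 1.37 (0.40 to 2.40), on 14 and 29 UMIs, too few for a call. In ECs the 8 osteoblast markers summed to 160 and 222, with 7 of 8 higher in Dach1OE, and their part in the Sema7a value of ECs was not tested either.

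**Figure D2:**
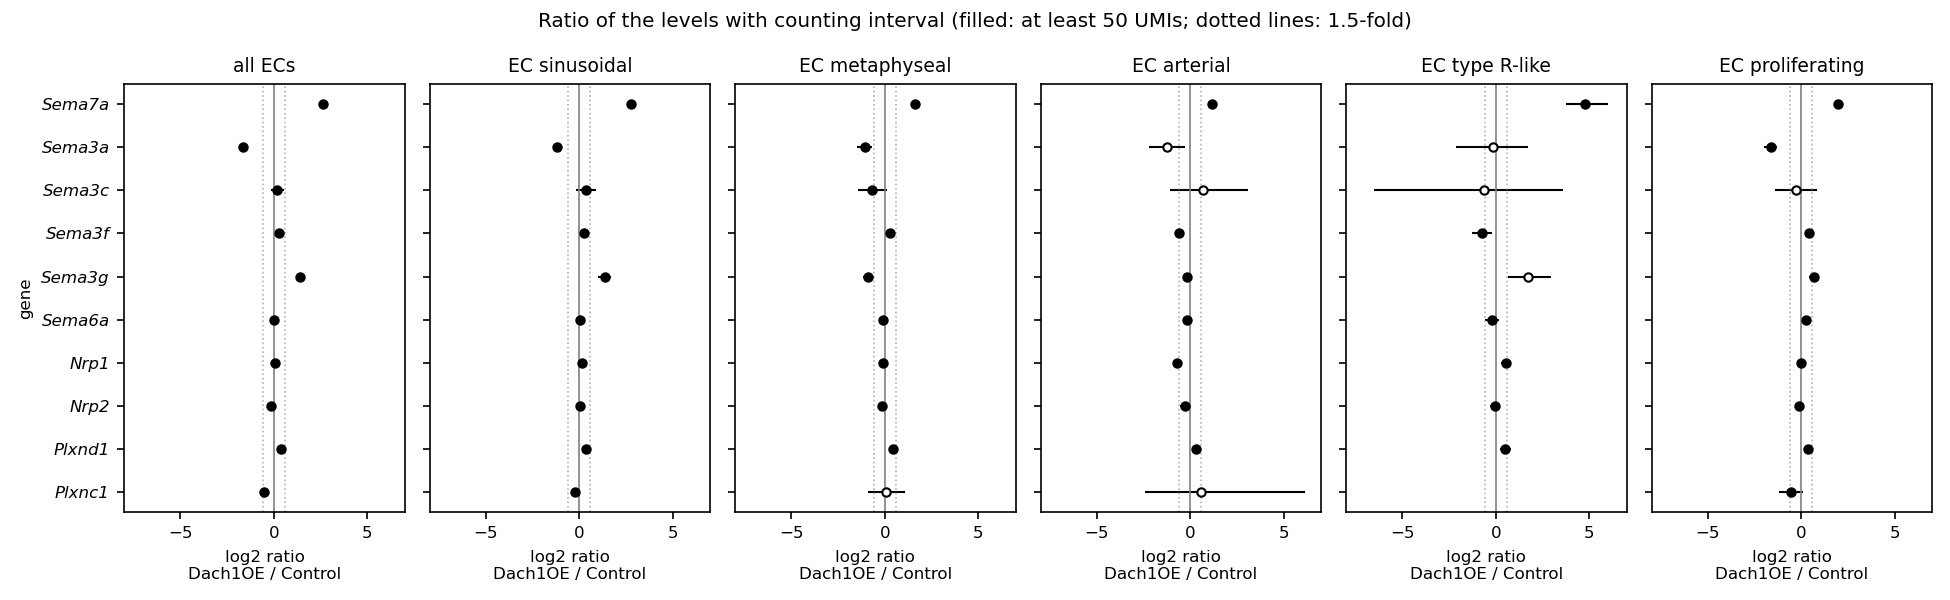
Log2 ratio of the level in Dach1OE over Control, with exact counting intervals, for the 10 genes in all ECs and in 5 EC subtypes; filled points rest on at least 50 UMIs, dotted lines mark 1.5-fold, and Plxnc1 had no UMI in type R-like ECs. Sema7a lies right of 1.5-fold in all 6 panels, from 1.15 to 4.79, and the filled points of Sema3a lie left of it in all ECs and in sinusoidal, metaphyseal and proliferating ECs.

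Sema3a was the member with the lower level, at 139 in Control ECs and 44.2 in Dach1OE ECs, a log2 ratio of -1.65 (-1.74 to -1.57) or 3.14-fold lower, with 70 of 14035 genes lower still. Cells with Xist had 137 in Control and 51.4 in Dach1OE, and cells with Y-linked UMIs 146 and 35.5, so that the groups did not overlap. At 1000 UMIs per cell, 12.5% of Control and 4.03% of Dach1OE ECs had a Sema3a UMI (29.3% and 10.03% without thinning), against 0.59% and 0.51% of erythroid cells.

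Most of Sema3a sat in sinusoidal ECs, and it was lower there too, at 188 and 82.5, a ratio of -1.19 (-1.29 to -1.09). The sinusoidal markers of these same cells were also lower, all 5 of them, with a sum of 4082 in Control and 3179 in Dach1OE, and the part of that shift in the Sema3a value was not tested. Without the ECs that carried 2 or more UMIs of Scgb3a1, a gene of secretory epithelium seen in 35 Control and 2250 Dach1OE ECs, the sinusoidal ratio was -0.65, still lower by more than 1.5-fold. Metaphyseal ECs had 33.1 and 15.8, a ratio of -1.07 (-1.47 to -0.67), and proliferating ECs 76.0 and 24.3, a ratio of -1.65 (-2.01 to -1.29). The 5 sinusoidal markers were lower there too, with sums of 639 and 488 in metaphyseal and 1495 and 813 in proliferating ECs. Arterial and type R-like ECs had too few UMIs for a call, 17 and 28 in arterial and 7 and 5 in type R-like ECs.

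Lower Sema3a was also measured in cells outside the endothelium. Fibroblasts had 73.8 and 38.5, chondrocytes 5.08 and 2.93, erythroid cells 5.64 and 2.60 and leukocytes 9.23 and 4.74 in Control and Dach1OE. The log2 ratio nearest to 0 among these 4 classes was -0.79 in chondrocytes. Marrow stromal cells, at 14.5 and 11.3, and osteoblasts, at 10.2 and 8.02, were within 1.5-fold, with ratios of -0.36 (-0.92 to 0.18) and -0.35 (-0.70 to -0.0031). The part of free RNA in these values was not tested.

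Sema3g was higher in ECs as a whole, at 61.7 in Control and 165 in Dach1OE, a ratio of 1.42 (1.35 to 1.49). The values of cells with Xist were 61.3 and 158, and those of cells with Y-linked UMIs 44.2 and 169. Within arterial ECs, which hold most of it, Sema3g was not higher, at 1094 and 974, a ratio of -0.17 (-0.26 to -0.07). Sinusoidal ECs, at 5.46 and 14.1, and proliferating ECs, at 60.2 and 95.4, had higher values in Dach1OE, with ratios of 1.37 (1.03 to 1.72) and 0.66 (0.40 to 0.94), whereas metaphyseal ECs had 61.5 and 33.5, a ratio of -0.87 (-1.16 to -0.60). Outside the endothelium Sema3g was sparse, for example 0.30 and 2.37 in osteoblasts, 0.94 and 3.83 in leukocytes and 2.28 and 7.48 in fibroblasts. It was lower in Dach1OE in mural cells (3.13 and 2.45) and metaphyseal stromal cells (3.99 and 1.40). The part of free RNA in these values and in the sinusoidal value was not tested. Among metaphyseal ECs the cells with Y-linked UMIs had 58.4 and 26.8, a ratio of -1.13 (-1.74 to -0.52), and the cells with Xist 46.1 and 41.8, a ratio of -0.14 (-0.62 to 0.34), while cells assigned to neither sex also enter the subtype's value. Among proliferating ECs the cells with Y-linked UMIs had 39.1 and 127, and the cells with Xist 65.3 and 77.5, a ratio of 0.25 (-0.18 to 0.68) short of 1.5-fold.

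The shares of the EC subtypes, as gated by markers, differed between the libraries, and the levels of the 3 members were also computed with these shares exchanged. Sinusoidal ECs gave 64.2% of EC UMIs in Control and 40.3% in Dach1OE, arterial ECs 3.40% and 13.2%, and metaphyseal ECs 12.2% and 17.1%. With the Dach1OE levels of each subtype weighted by the Control shares, Sema3g was at 63.0 beside 61.7 in Control, a log2 ratio of 0.03. With the Control levels weighted by the Dach1OE shares it was at 179, a ratio of 1.53 beside the measured 1.42. Sema7a at Control shares was at 257, a ratio of 1.85, and the shares alone gave 149, a ratio of 1.06. Sema3a at Control shares was at 60.4, a ratio of -1.20, and the shares alone gave 104, a ratio of -0.42. These are recalculated values from 1 library a group, and the part of the shares in the differences was not tested.

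**Figure D3:**
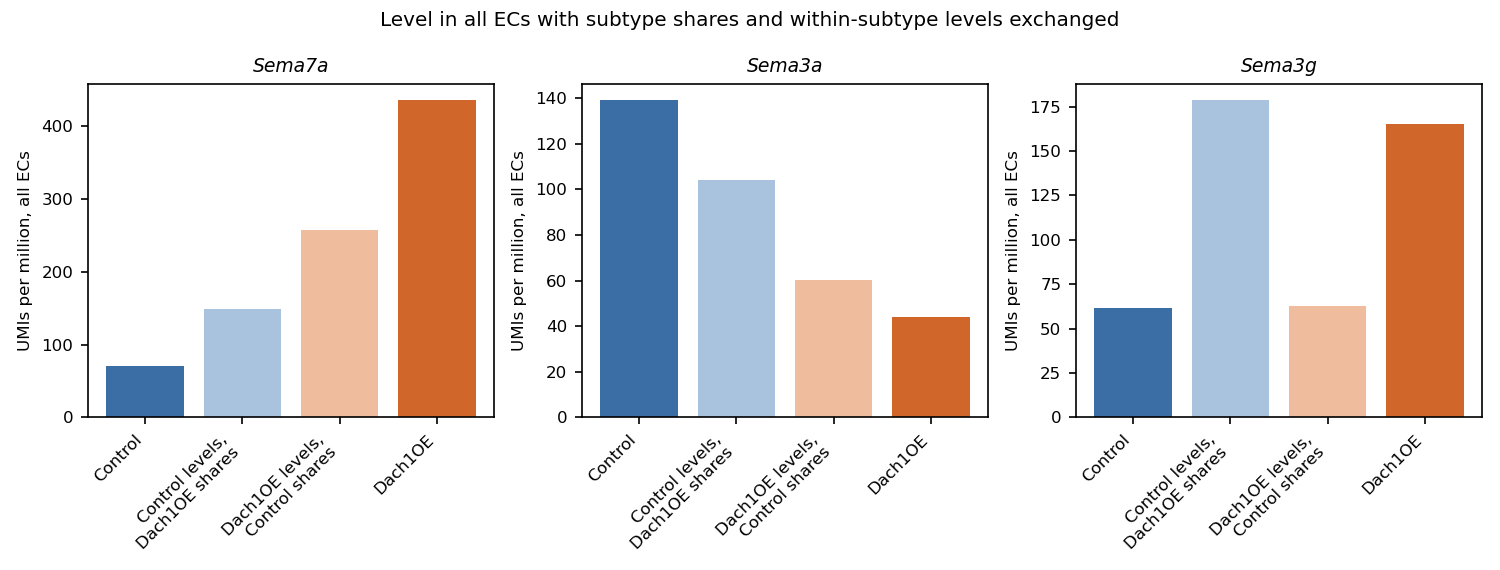
Bars from 0 of the level (CPM) in all ECs for Sema7a, Sema3a and Sema3g: as measured in Control, with Control levels at the Dach1OE subtype shares, with Dach1OE levels at the Control shares, and as measured in Dach1OE, from 1 library each. From left to right the bars are at 61.7, 179, 63.0 and 165 for Sema3g, at 71.2, 149, 257 and 435 for Sema7a, and at 139, 104, 60.4 and 44.2 for Sema3a.

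The remaining ligands were within 1.5-fold in ECs as a whole. Sema3f was at 115 and 140, a ratio of 0.29 (0.22 to 0.35), and Sema6a at 208 and 209, a ratio of 0.01 (-0.04 to 0.05). For Sema6a the interval is narrow, and by counting error alone a difference of 1.5-fold in ECs lies outside it. In arterial ECs Sema3f was lower in Dach1OE, at 182 and 120, a ratio of -0.60 (-0.84 to -0.36) that fell short of 1.5-fold in 5 of 12 alternatives (-0.52 under the stricter mitochondrial limit), and in type R-like ECs it was at 132.5 and 79.2, a ratio of -0.74 (-1.28 to -0.22).

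Among the receptors no ratio in ECs as a whole reached 1.5-fold. Plxnd1 was at 362 and 465, a ratio of 0.36 (0.33 to 0.40), with 386 and 330 in the cells of either sex of Control against 474 and 453 in those of Dach1OE. Its level was higher in Dach1OE in sinusoidal, metaphyseal, arterial, type R-like and proliferating ECs, with ratios from 0.29 to 0.51, all short of 1.5-fold, although in type R-like ECs the cells of either sex overlapped between the groups. Nrp1 was at 370 and 385, a ratio of 0.06 (0.02 to 0.09), and Nrp2 at 393 and 352, a ratio of -0.16 (-0.19 to -0.12). Plxnc1 was at 14.3 and 9.88, a ratio of -0.53 (-0.74 to -0.32), with 12.4 and 10.9 in cells with Xist and 16.0 and 7.99 in cells with Y-linked UMIs.

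Among the EC subsets Nrp1 had its largest difference in arterial ECs, where its Control level was highest. It stood at 602 in Control and 372 in Dach1OE there, a ratio of -0.69 (-0.82 to -0.56), with 600.5 and 718 in the cells of either sex of Control and 357 and 365 in those of Dach1OE. The groups did not overlap. The 5 arterial markers of these cells summed to 3086 in Control and 4487 in Dach1OE, and 322 and 1225 cells made up the subset. Type R-like ECs had 333 and 480, a ratio of 0.53 (0.27 to 0.78).

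Read by subtype, Sema7a was called higher in each, and the other calls of at least 1.5-fold differed between subtypes. In sinusoidal ECs Sema7a and Sema3g were higher and Sema3a lower among 10 members counted, where 6.33% of genes were higher and 4.71% lower. In metaphyseal ECs Sema7a was higher and Sema3a, Sema3c and Sema3g were lower among 9, beside 5.37% and 5.26% of all genes. The metaphyseal Sema3c call rested on 32 and 29 UMIs, with an interval from -1.45 to 0.10, and was 0.69 in cells with Y-linked UMIs. In arterial ECs Sema7a was higher and Sema3f and Nrp1 were lower among 7, beside 11.4% and 7.51% of all genes.

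Outside the endothelium the calls fell on other members as well as on Sema3a and Sema7a. In marrow stromal cells Sema3c and Plxnc1 were higher among 9 members counted, beside 5.59% of all genes in either direction, at 6.94 and 11.6 for Sema3c and 6.94 and 10.5 for Plxnc1, and the Plxnc1 interval, -0.05 to 1.22, included 0. In cells with Xist alone 0 members were called there, but Sema3c had too few UMIs for a call (45 over both libraries), at 7.86 and 15.4, a ratio of 0.97 (0.03 to 1.88). The cells with Y-linked UMIs had 3.07 and 1.21, on 5 and 1 UMIs, so that the groups overlapped. None of 9 members in osteoblasts was called, beside 5.15% of genes. Sema3g had too few UMIs for a call there, 4 and 44, at 0.30 and 2.37, a ratio of 2.97 (1.51 to 4.91). The same held for Sema3c in megakaryocytes, at 1.49 and 15.5 on 3 and 25 UMIs, a ratio of 3.38 (1.66 to 5.75). The part of RNA from other cells in these values was not tested. Chondrocytes had 1 of 10, the lower Sema3a (just short of 1.5-fold in cells with Y-linked UMIs, at -0.58), beside 6.56%, and mural cells 1 of 5, the higher Sema7a, beside 7.75%. Under the stricter mitochondrial limit the mural Sema7a ratio was 0.52 (-0.03 to 1.10) and no longer called. In mural cells with Y-linked UMIs it was 1.71 (0.58 to 3.03), on 43 UMIs and thus not counted. Fibroblasts had 2 of 4, the lower Sema3a and Nrp2, beside 10.5% of genes, where Nrp2 was at 47.2 and 31.0, a ratio of -0.61 (-1.30 to 0.05) that included 0, and its cells of either sex overlapped between the groups. Erythroid cells had 2 of 8, the lower Sema3a and Sema3c, beside 5.66%, and leukocytes 2 of 8, the higher Sema7a and the lower Sema3a, beside 4.75%. Nrp1 in marrow stromal cells, the stromal cells that support haematopoiesis and carry much of this co-receptor, was at 503 and 404, a ratio of -0.32 (-0.40 to -0.23), with 534 and 489 in the cells of either sex of Control and 425 and 398 in those of Dach1OE. The 8 marrow stromal markers of these cells were all lower in Dach1OE as well, with sums of 24531.5 and 20273, and their part in the Nrp1 ratio was not tested.

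**Figure D4:**
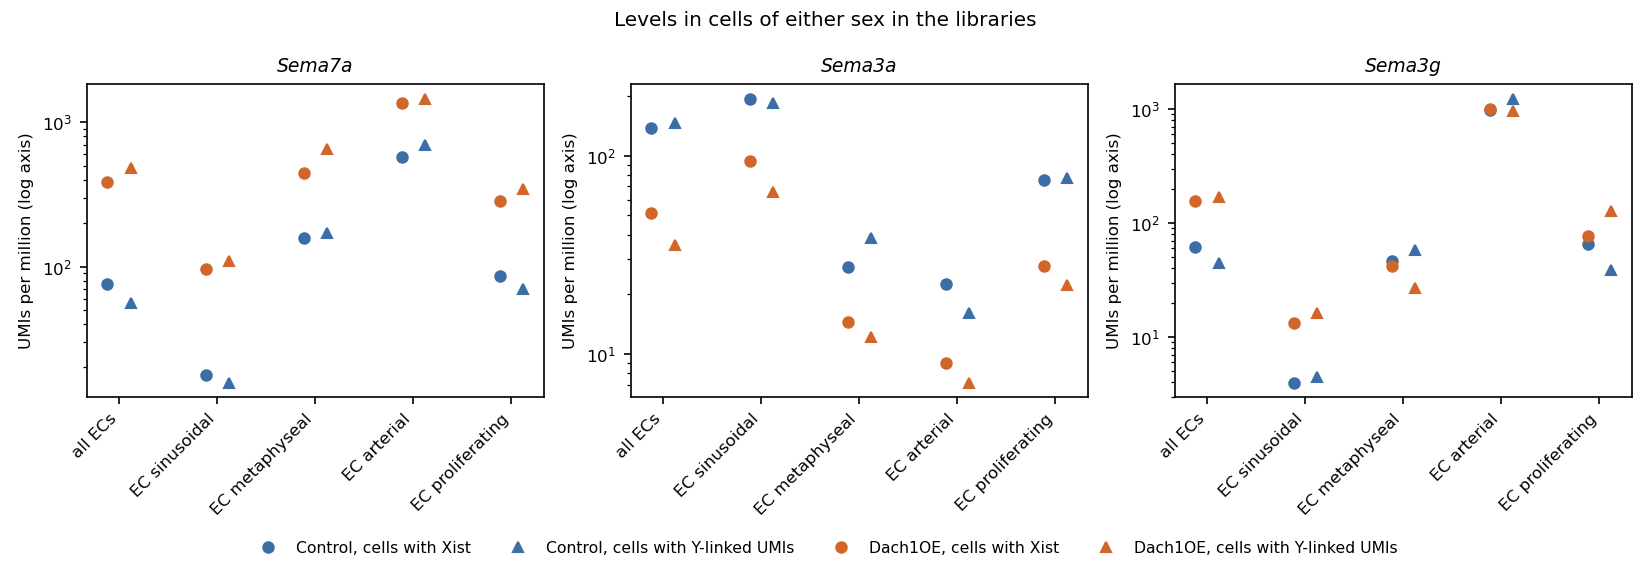
Level (CPM) on log axes for Sema7a, Sema3a and Sema3g in all ECs and 4 subtypes, in cells with Xist (circles) and cells with Y-linked UMIs (triangles) of either library, each point 1 mouse on the reading that a pair was 1 female and 1 male. Sema7a and Sema3a of the groups do not overlap in any column, while Sema3g of arterial ECs does, at 979.7 and 1233 in Control and 999.8 and 964 in Dach1OE. The arterial Sema3a points rest on only 10 and 3 UMIs in Control and 12 and 9 in Dach1OE.

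A Dach1 UMI was seen in 3749 of the 9881 ECs of the Dach1OE library and in 151 of 9481 Control ECs, and the counts do not separate transcripts of the transgene from those of the mouse's own gene. A cell without one may still express Dach1, as its median depth was 2487.5 UMIs against 3451 in the cells with one. Sema7a was above Control in both sets, at 345 in ECs without and 546 in ECs with a Dach1 UMI, beside 71.2 in Control ECs. The log2 ratio of the set without over Control was 2.28 (2.21 to 2.35). That of the set with over the set without was 0.66 (0.61 to 0.71), or 0.39 (0.28 to 0.50) after thinning to 1000 UMIs. Thinning also redrew the sets by the Dach1 UMIs that were kept, into 1615 ECs with and 7938 without. A cell with a Dach1 UMI in the full counts can thus fall in the set without, so that thinned ratios here and below do not isolate depth.

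Sema3a was ordered the other way between the sets in ECs as a whole. It was at 61.9 in ECs without a Dach1 UMI and 22.4 in those with one, a ratio of -1.47 (-1.65 to -1.29), and -1.49 (-2.07 to -0.95) after thinning. Within sinusoidal ECs the values were 117 and 37.4, a ratio of -1.65 (-1.87 to -1.44), beside 188 in Control sinusoidal ECs. In metaphyseal ECs, at 17.2 and 13.8, the Sema3a ratio was -0.31 (-0.98 to 0.33) and 0.10 (-1.64 to 1.49) after thinning, so that no order of the sets could be seen there, whereas Sema7a was at 403 and 727, a ratio of 0.85 (0.75 to 0.96) that was 0.40 (0.14 to 0.64) after thinning. Sema3g was at 146 and 189, a ratio of 0.37 (0.29 to 0.45) that was 0.10 (-0.08 to 0.29) after thinning. In metaphyseal and proliferating ECs Sema3g was lower in the set with a Dach1 UMI, at 41.1 and 22.5, a ratio of -0.87 (-1.36 to -0.40), and at 117 and 76.6, a ratio of -0.61 (-0.92 to -0.31), and in sinusoidal ECs it was higher, at 11.4 and 17.7, a ratio of 0.64 (0.21 to 1.07). After thinning these Sema3g ratios were -0.75 (-2.12 to 0.37) in metaphyseal, -0.05 (-1.19 to 0.93) in proliferating and -0.64 (-2.02 to 0.50) in sinusoidal ECs. The sinusoidal sign thus turned, and the intervals of these 3 subtypes included 0. Sema6a, Nrp1 and Plxnd1 had ratios of 0.03, 0.03 and 0.08 between the sets, and 0.14, 0.12 and 0.14 after thinning. Sema3f had 0.16 (0.08 to 0.25) and Nrp2 -0.13 (-0.18 to -0.08). After thinning these were 0.18 (-0.02 to 0.37) and -0.04 (-0.17 to 0.09). The sparse Sema3c and Plxnc1 were lower in the set with a Dach1 UMI, with ratios of -0.73 (-1.24 to -0.25) and -0.42 (-0.75 to -0.09). After thinning the ratios were -1.16 (-3.51 to 0.51) and -0.82 (-1.93 to 0.12), no nearer to 0, with wider intervals that included 0. Within sinusoidal ECs Sema7a was at 78.8 and 144, a ratio of 0.87 (0.72 to 1.03) that was 0.22 (-0.16 to 0.59) after thinning. Arterial ECs, the subset highest in Sema7a, had 1277 and 1488, a smaller ratio of 0.22 (0.15 to 0.29), and 0.20 (0.03 to 0.37) after thinning. They made up 662 of the 6132 ECs without and 563 of the 3749 ECs with a Dach1 UMI. The part of subtype shares in the ratios of ECs as a whole was not tested.

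**Figure D5:**
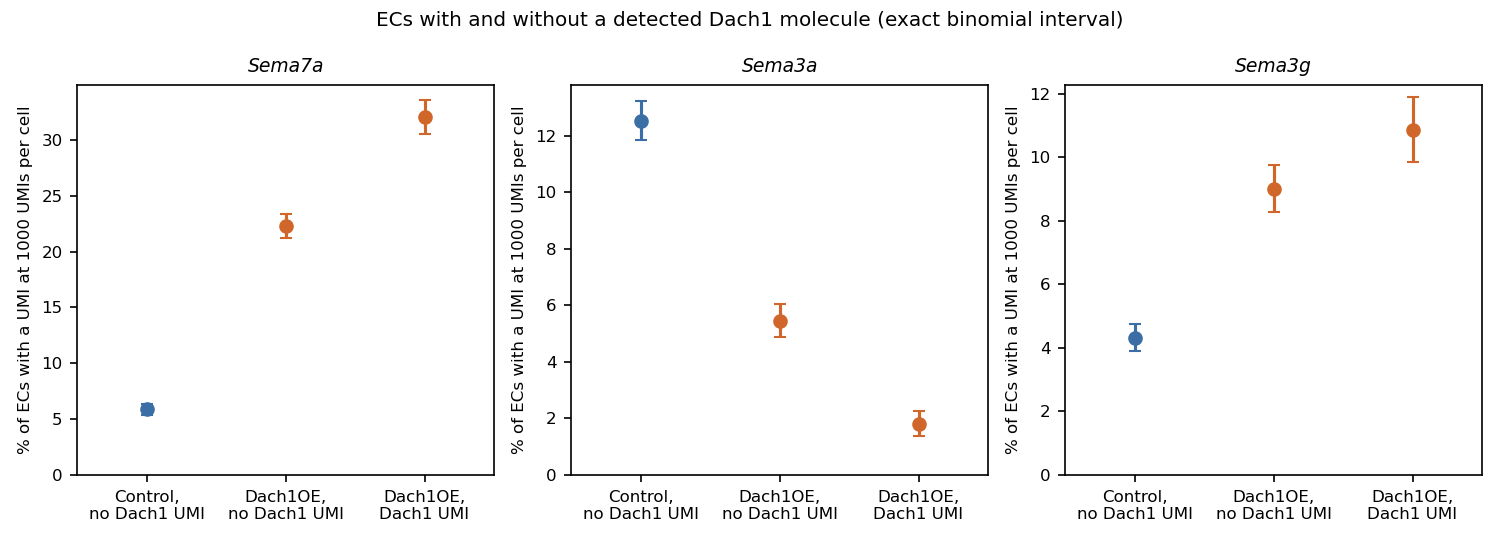
Share of ECs with a UMI of Sema7a, Sema3a or Sema3g at an equal depth of 1000 UMIs, with exact binomial intervals, in Control ECs without a Dach1 UMI and in Dach1OE ECs without and with one. The sets here follow the Dach1 UMIs of the full counts, before thinning. The Sema7a share goes from 5.88% over 22.3% to 32.0% and the Sema3a share from 12.5% over 5.44% to 1.79%, with no overlap of the intervals.

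The Scgb3a1-positive ECs of Dach1OE held less Sema7a than the other ECs. The 2250 such cells had a level of 222 against 509 in the 7631 other ECs of that library, a ratio of -1.20 (-1.27 to -1.13). Control ECs were at 71.2, below both. Leaving out the Scgb3a1-positive cells gave a Sema7a ratio of 2.83 in ECs. Sema3g was also lower in these cells, at 39.0 against 209, and Sema3a was at 33.6 against 47.9. Both sets pool all EC subtypes, and the part of subtype shares in these values was not tested.

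In the wider pathway a few genes of each list differed in ECs, where 7.97% of all genes were higher and 6.42% lower. Of 14 other semaphorins 12 could be counted, and 2 were higher and 1 lower by at least 1.5-fold, with a median log2 ratio of 0.14. Sema3e, the ligand that binds Plxnd1 without a neuropilin, was at 2.89 and 4.78, a ratio of 0.72, Sema4g at 2.37 and 3.78, and Sema3d lower at 11.8 and 7.78. All 7 other plexins were counted, of which Plxnb1, a receptor of class 4 semaphorins, was higher at 4.12 and 6.70 and Plxnb3 lower at 0.98 and 0.60 with an interval, -1.60 to 0.14, that included 0, and with 0.87 and 0.97 in cells with Y-linked UMIs. Among 30 co-receptors and effectors 29 were counted, with Mical1, an enzyme that takes apart actin filaments below plexins, higher at 3.29 and 6.13, and Itga1 and Met lower. Itga1, the alpha chain of a collagen-binding integrin that is also a Sema7a receptor, was at 324 and 170, a ratio of -0.93 (-0.97 to -0.88), with 302 and 354 in the cells of either sex of Control and 185 and 152 in those of Dach1OE. Met, a receptor kinase that couples to B-type plexins, was at 6.21 and 4.02, a ratio of -0.63 (-0.95 to -0.30). It was at 6.92 and 4.35 in cells with Xist and at 3.70 and 3.99 in cells with Y-linked UMIs. The difference between the sexes was not tested.

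The genes whose levels followed each member most closely were found among 7721 genes over the 15 subsets of both libraries, or 30 points that share libraries and markers, as Pearson's r of log2 levels. Sema3g went with Jag2, a Notch ligand of arteries (0.92), Mecom (0.91) and Podxl (0.90). Nrp1 went with the Notch target Hes1 (0.97), Plxnd1 with the adhesion receptor Adgrf5 (0.96), and Sema6a and Sema3f with Plekhg1 (0.98) and Tmem204 (0.97). For Sema7a the closest was Pik3r3, a regulatory subunit of phosphoinositide kinase (0.88), for Sema3a the extracellular protease Adamts5 (0.90), for Sema3c Medag (0.92), for Nrp2 the cholesterol exporter Abca1 (0.90) and for Plxnc1 Tada1 (0.86).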

How the data were processed

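Cells of 1 Control and 1 Dach1OE library were profiled by scRNA-seq. Per the file headers the authors ran version 1.11 of the BD Rhapsody WTA pipeline to make the deposited counts, on GRCm38 with GENCODE vM19, counting intronic reads, whereas the methods name another version. The deposited UMI counts after recursive substitution error correction (RSEC) were used as whole numbers with no normalization. Whether counting used strand is not given in the sources used here.

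The limits on cells were those of the methods: 500 to 6000 genes detected, and mitochondrial genes giving less than 25% of UMIs. A cell took the class with most of its 8 markers detected, at least 3 and 2 more than any other class. 2461 Control and 3084 Dach1OE cells had exactly that lead, and 2190 and 2714 fell short by 1 marker. ECs took the subtype with most of its 5 markers, at least 2, after cells with 2 or more proliferation markers were set apart. Classes under 50 cells in a library were left out (Schwann cells, lymphatic ECs). No doublet caller was run; leaving out cells with 3 or more markers of a second class was an alternative. UMIs were summed per class and scaled to 1000000 UMIs (CPM, with exact Poisson intervals). The log2 ratio has an exact conditional (Clopper-Pearson) interval at 95%. A gene was called when it had at least 50 UMIs over both libraries and differed by at least 1.5-fold. Shares of cells with a UMI were taken after thinning to 1000 UMIs (exact binomial intervals). Cells were not treated as replicates, and intervals cover counting error only.

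Named were the 10 members, the called genes of 3 lists (other semaphorins, other plexins, co-receptors and effectors) with the largest ratios, at most 8, and the genes most like each member (at least 50 CPM in a subset; log2 of the level plus 1; gate markers left out). Members and lists were chosen with earlier results of these data known. Coordinates come from GENCODE vM21 and promoters from RefSeq, both on GRCm38. The ratio code was tested on simulated data. Tools were Python 3.11.15, NumPy 2.4.6, SciPy 1.17.1, pandas 2.3.3 and matplotlib 3.10.9. Alternatives were 12 planned settings and 2 chosen after seeing the data, the omission of Scgb3a1-positive ECs and Control subtype shares in both libraries.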

Additional observations from a re-analysis of the deposited data

Results flagged for a closer look

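Some members had ratios (log2, Dach1OE over Control) of opposite sign in different EC subtypes or in the cells of either sex. The difference between these ratios was not tested, since 1 library stood for each group. Sema3f had ratios of 0.27 in sinusoidal, 0.27 in metaphyseal and 0.43 in proliferating ECs, but -0.60 in arterial and -0.74 in type R-like ECs. Sema3g had 1.37 in sinusoidal and 0.66 in proliferating ECs and -0.87 in metaphyseal ECs. Nrp1 had 0.12 in sinusoidal and 0.53 in type R-like ECs against -0.088 in metaphyseal and -0.69 in arterial ECs. Sema6a, level in ECs as a whole, had -0.13 in cells with Xist and 0.17 in cells with Y-linked UMIs of all ECs, and -0.13 and 0.33 in those of sinusoidal ECs.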

How the results depend on the processing

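Sema7a in ECs stayed higher in Dach1OE under all 13 alternatives, with log2 ratios from 1.54 (equal weights of the EC subtypes) to 3.11 (cells with Y-linked UMIs), and Sema3a stayed lower under all 13, from -2.04 (cells with Y-linked UMIs) to -1.20 (Control subtype shares). Sema3g in ECs turned to -0.088 at equal weights of the subtypes, and Sema3c in metaphyseal ECs to 0.69 in cells with Y-linked UMIs, on 4 and 13 UMIs. The share of all genes called under the same setting is not given beside the counts that follow. A change in a count is thus not a result about the members. The count of members called higher in ECs was 2, 1 with equal weights or Control shares and 3 in cells with Y-linked UMIs, where Sema3c joined. The count called lower in ECs was 1, and 2 under the stricter class gate, without cells of a second class, in cells with Y-linked UMIs and without Scgb3a1-positive cells, where Plxnc1 joined Sema3a. In metaphyseal ECs the count called lower was 3, 1 in cells with Xist and 2 in 6 other alternatives. In arterial ECs the count called higher was 1, and 2 in cells with Y-linked UMIs and 3 with no minimum on counts, and the count called lower was 2, 1 under stricter class, subtype or mitochondrial limits and without cells of a second class, and 3 with no minimum. In marrow stromal cells 2 members were called, and 1 under the stricter class gate (the lower Sema3a), without cells of a second class (Sema3c) and in cells with Y-linked UMIs (Sema7a, at 0.81), and 0 in cells with Xist and with equal weight for each cell, and 3 with no minimum. Osteoblasts had 0, and 1 in cells with Xist and with no minimum. Chondrocytes had 1, and 2 under the stricter class gate and in the cells of either sex (Sema3g and Nrp2 in cells with Y-linked UMIs, with Sema3a just short at -0.58), and 3 with equal weight for each cell. Mural cells had 1, and 2 under the stricter class gate, in cells of at least 2000 UMIs, in cells with Xist and with centred ratios, and 0 under the stricter mitochondrial limit (Sema7a at 0.52) and in cells with Y-linked UMIs, where Sema7a at 1.71 missed the minimum of 50 UMIs. The other causes were not tested. No paired analysis was possible because the labels give 1 library a group and pair no mice, and the ratios within cells of 1 sex are given without a test. Depth limits Sema3c and Plxnc1 in ECs, which rested on 138 and 464 UMIs in Control and 162 and 329 in Dach1OE.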
